A study of Cavia porcellus with 24 samples.

Results

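A window of 320 kb on scaffold DS562865.1 of the guinea pig genome (build cavPor3, positions 39800000 to 40120000) was examined in hippocampus and whole blood of juvenile females whose mothers had received synthetic glucocorticoids (sGC) or saline. The window was chosen by the measured values. Its core, positions 39960700 to 39961100, had lost methylation with sGC exposure mostly in blood, so that the difference between sGC and control in the core is given here as a description, with no test. All listed cytosines of both strands in the window were taken. There were 777 of them in blood, out of 2927801 in the whole table, and 749 in the hippocampus, out of 2869370. Of the 876 cytosines listed in either tissue, 650 were listed in both, and 10 lay in the core.

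DNA came from 12 animals of the Hartley strain, 1 from each litter, killed on postnatal day 14. The sGC group was born to 6 mothers injected in late gestation with repeated courses of betamethasone at 1 mg/kg. The control group (Con) was born to 6 mothers injected with saline. Both tissues were taken from every animal, which gave 24 samples in 4 groups of 6. The labels give no strain or other treatment that differed between the groups, and they record no genotype. Hippocampus and blood are each mixtures of cell types. A change in methylation within a cell type and a change in the share of cell types therefore cannot be told apart here.

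In mammals, methylation of cytosine is found mostly at CpG dinucleotides and is copied to the new strand when a cell divides. Most CpGs outside CpG islands are methylated in most cells, whereas islands at gene starts are usually unmethylated. A CpG with an intermediate percentage is methylated in a part of the cells or on a part of the alleles, and a percentage from sequenced reads does not separate these cases. Reduced representation bisulfite sequencing (RRBS) reads the ends of DNA fragments cut at MspI sites, after bisulfite has converted unmethylated cytosines, so that the cytosines seen cluster where such sites lie. Each value below is the share of reads that kept the cytosine, from the reads of the 6 animals of a group summed by the authors. Such a sum is called a pool. A pool gives 1 value per cytosine, the spread between animals is unknown, and 95% Wilson intervals cover counting error only. Positions are printed as the deposited tables give them. No gene is named for the window in these tables. The gene table at hand is of another assembly (mCavPor4.1) and was not used for positions, so that genes, exons and sequence of the window were not analysed here.

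The core was read deeply. Its cytosines had a median of 210 reads in the sGC blood pool, 172 in the control blood pool, 183 in the sGC hippocampus pool and 153 in the control hippocampus pool, against medians of 98, 79, 93 and 86 over the whole tables. The listed cytosines of the core lay between 39960782 and 39961029, a stretch of 247 bp, and belonged to 6 CpGs. In blood, the 10 cytosines came from 5 sets of reads, where a set holds cytosines of 1 strand within the read length of 75 bp and with coverage within 10% of the one before. Cytosines of 1 set share their reads and so do not count as separate evidence.

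In blood, all 10 cytosines of the core were less methylated with sGC exposure than in controls. Summed over the core, 430 of 2005 readings (21.4%, interval 19.7 to 23.3) were methylated in the sGC pool and 1249 of 1822 (68.6%, 66.4 to 70.6) in the control pool, where a reading is 1 cytosine in 1 read. The difference of sGC less control was -47.1 percentage points (Newcombe interval -49.8 to -44.3). Intervals on summed readings, here and below, take the readings as independent. Cytosines of 1 set share their reads, so these intervals are too narrow even for counting error. Given equal weight, the cytosines had a mean difference of -43.8 ± 9.99 (SD over 10 cytosines, not animals). The control pool lay between 58.4% and 86.0%, and the sGC pool lay between 4.55% and 66.7%.

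**Figure D1:**
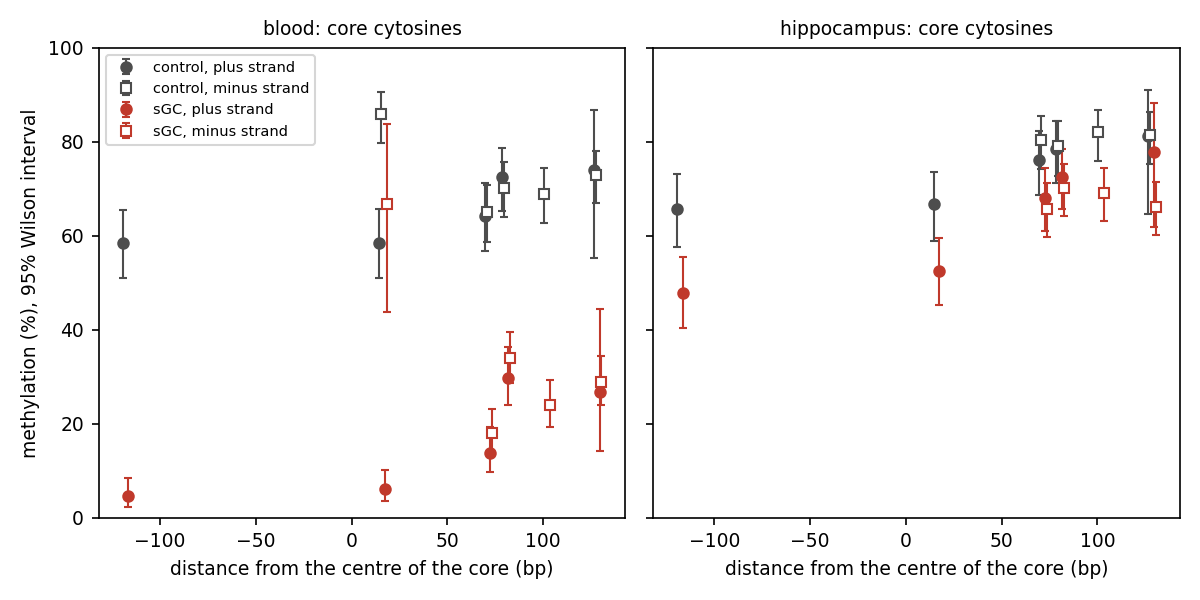
Methylation of each core cytosine (y axis, %, with 95% Wilson intervals) by its distance from the centre of the core (x axis, bp), in blood and hippocampus, for the control pool (grey) and the sGC pool (red), with plus strand filled and minus strand open and the pools drawn slightly apart. In blood the sGC pool lies below the control pool at all 10 cytosines, and only the minus strand cytosine with 18 reads in the sGC pool has overlapping intervals.

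Apart from 39960917, the sGC blood pool was lowest at the left end of the core. At 39960782 on the plus strand, the cytosine with the largest loss, the sGC pool had 9 methylated reads of 198 (4.55%, interval 2.41 to 8.41) and the control pool 101 of 173 (58.4%, 50.9 to 65.5), which is -53.8 percentage points. At 39960916 on the plus strand, the counts were 13 of 211 (6.16%) for sGC and 100 of 171 (58.5%) for control, or -52.3 points. At 39960971 on the plus strand the values were 29 of 209 (13.9%) and 108 of 168 (64.3%), a difference of -50.4. The first 2 of these were thus nearly unmethylated in the sGC blood pool, and all 3 were at an intermediate level in the control pool.

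Toward the right end, more of the reads of the sGC blood pool were methylated. At 39961002 on the minus strand, the sGC pool had 68 methylated reads of 283 (24.0%) and the control pool 166 of 241 (68.9%), or -44.9 points. At 39961029 on the minus strand, the cytosine with the most reads, the values were 82 of 284 (28.9%, interval 23.9 to 34.4) and 177 of 243 (72.8%, 66.9 to 78.0), a difference of -44.0. The smallest losses among cytosines with at least 100 reads in each pool were at the CpG of 39960980. Its plus strand cytosine had 62 of 208 reads methylated (29.8%) against 121 of 167 (72.5%), a difference of -42.6, and its minus strand cytosine had 96 of 283 (33.9%) against 167 of 238 (70.2%), a difference of -36.2.

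The opposite strands of a CpG are read in separate reads, and in blood they gave like values at 3 CpGs. At the CpG of 39960971, the plus strand differed by -50.4 and the minus strand, at 39960972, by -46.8 percentage points (51 of 281 reads against 154 of 237). At the CpG of 39961028, the plus strand had 8 methylated reads of 30 against 20 of 27 and differed by -47.4 (interval -65.3 to -21.6), beside -44.0 on the minus strand. The strands of the CpG of 39960916 differed from each other. Its minus strand cytosine, 39960917, had 12 methylated reads of 18 (66.7%, interval 43.7 to 83.7) in the sGC pool and 135 of 157 (86.0%, 79.7 to 90.6) in the control pool. The gap was -19.3 (interval -42.7 to -1.14), the smallest loss of the core. This cytosine also stood apart in its depth, with 8.72 times as many reads in the control pool as in the sGC pool. The other core cytosines in blood had between 1.11 and 1.25 times as many reads in the sGC pool as in the control pool.

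In the hippocampus, 9 cytosines of the core were listed, and all 9 were lower with sGC exposure, by less than in blood. Summed over the core, 1167 of 1794 readings (65.1%, interval 62.8 to 67.2) were methylated in the sGC pool and 1061 of 1379 (76.9%, 74.6 to 79.1) in the control pool, a difference of -11.9 percentage points (Newcombe interval -15.0 to -8.73). The mean difference over cytosines was -11.3 ± 4.85 (SD over 9 cytosines, not animals). As in blood, the largest loss was at 39960782, where the sGC pool had 80 methylated reads of 167 (47.9%, interval 40.5 to 55.4) and the control pool 92 of 140 (65.7%, 57.5 to 73.1), or -17.8 points. At 39961029 the values were 173 of 262 (66.0%) and 154 of 189 (81.5%), a difference of -15.5. The minus strand lost somewhat more than the plus strand, -13.0 over 4 cytosines against -11.0 over 5, the reverse of the order in blood (-44.7 against -49.6). At 39961028, with 36 and 32 reads, the difference of -3.47 had an interval of -22.1 to 16.1, so that no loss was detectable at this depth.

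At the 9 core cytosines listed in both tissues, the blood pools were 21.0% with sGC exposure and 66.9% in controls, and the hippocampus pools 65.1% and 76.9%. The change in blood less that in the hippocampus lay between -43.9 and -27.2 percentage points, and was thus negative at each of them. The rule used these changes, so that the gap between the tissues is a description. Both tissues came from the same animals, and the sGC hippocampus pool was close to the control blood pool in the core.

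**Figure D2:**
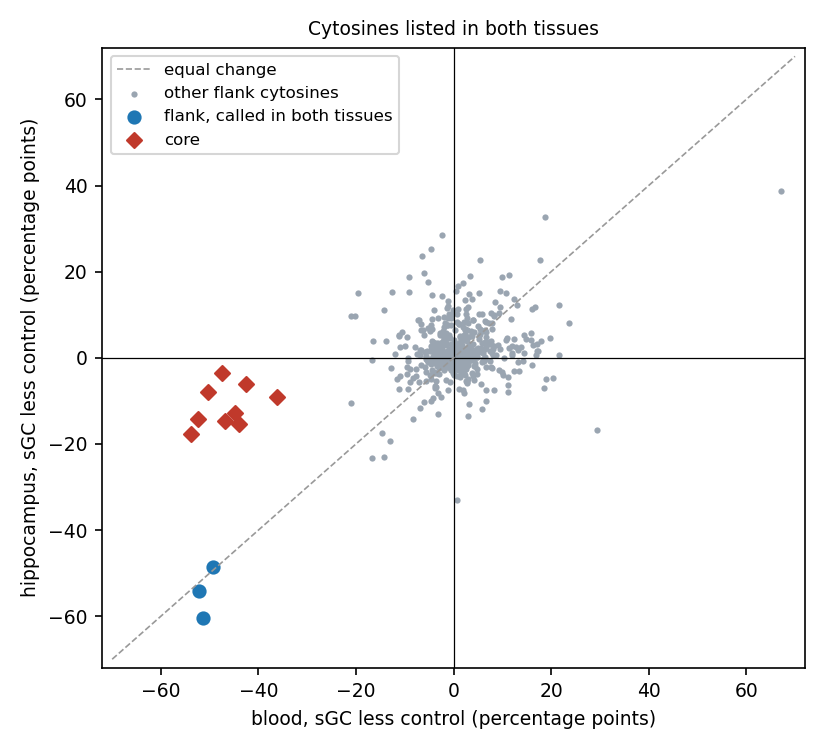
Difference of sGC less control in blood (x axis, percentage points) and in the hippocampus (y axis, percentage points) at the 650 cytosines of the window listed in both tissues. The 9 core cytosines (red) lie between -53.8 and -36.2 in blood and between -17.8 and -3.47 in the hippocampus, whereas 3 flank cytosines called in both tissues (blue) lie near the line of equal change.

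Each listed cytosine was tested on the summed reads by a two-sided Fisher's exact test with Benjamini-Hochberg adjustment over the whole table of the tissue. A cytosine was called a differentially methylated CpG site (DMC) where the adjusted p was below 0.05 and the pools lay at least 5 percentage points apart. The test takes reads as independent draws and compares the pools, not the animals. It called 0.317% of all cytosines in blood, 0.125% as lower and 0.192% as higher with sGC exposure, and 0.112% in the hippocampus, 0.0391% as lower and 0.0729% as higher. In the core, 8 of 10 cytosines were called in blood, all lower, and 0 of 9 in the hippocampus, where 6 of 9 had an unadjusted p below 0.05. These core counts restate the contrast the locus was chosen on.

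The run of neighboring listed cytosines with a loss of at least 10 percentage points in blood was the core itself, from 39960782 to 39961029. The next listed cytosine on either side was not lower with sGC exposure. On the left it could not be, with 0 of 27 reads methylated in the control pool. At a threshold of 20 points the run shrank from 247 to 58 bp and held 7 cytosines, from 39960971 to 39961029, since it was broken at 39960917. In the hippocampus, the run with a loss of at least 10 points held the leftmost 2 cytosines, 39960782 and 39960916, and was broken by the smaller loss at 39960971. Losses of at least 10 points recurred further right, at 39960972 (-14.8), 39961002 (-12.9) and 39961029 (-15.5), with smaller losses between them. The nearest listed cytosine to the left, 39959941, lay 841 bp away and was listed in blood only, with 1 methylated read of 21 (4.76%) in the sGC pool and 0 of 27 in the control pool, which allows up to 12.5% by the Wilson interval. In the hippocampus, 39959881 and 39959936 on the same strand were also nearly unmethylated, with at most 1 methylated read of 29 to 32 in each pool. To the right, 39961371 lay 342 bp away. It was methylated in all 18 reads with sGC exposure and in 14 of 17 in controls in blood, and in all 15 and in 17 of 22 in the hippocampus. Both differences were positive, 17.6 (interval -3.34 to 41.0) and 22.7 (-1.24 to 43.4) percentage points, and neither was called. The core thus lay between sparsely read neighbors with low methylation on the left and high methylation on the right, and no cytosine was listed for a further 26.3 kb to the right. Where between these neighbors the loss began and ended cannot be seen in these tables.

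**Figure D3:**
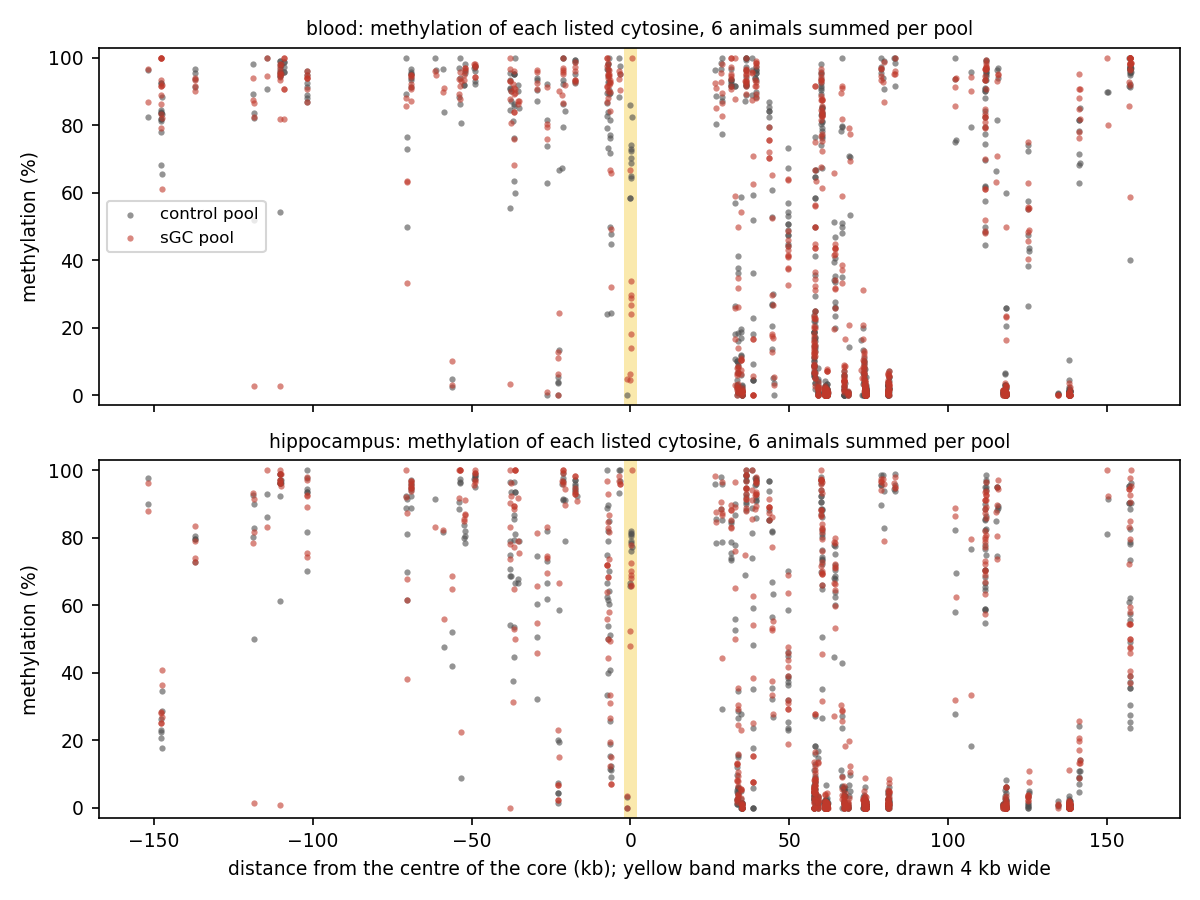
Methylation of each listed cytosine of the window (y axis, %) by its distance from the centre of the core (x axis, kb), in blood and hippocampus, for the control pool (grey) and the sGC pool (red). The left flank is mostly methylated, the right flank holds dense groups near 0%, and the core lies in the yellow band, which is drawn wider than the core.

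The flanks, all listed cytosines of the window outside the core, showed no such loss. In blood, 36.5% of 86151 readings (interval 36.2 to 36.8) were methylated with sGC exposure and 37.4% of 71479 (37.0 to 37.7) in controls, a difference of -0.879 percentage points, which changed sign, to 0.827, when the 767 cytosines were given equal weight. The hippocampus flanks were 32.0% methylated over 82029 readings in the sGC pool and 30.5% over 73187 in the control pool, 1.59 apart. The median difference over flank cytosines was 0.391 in blood and 0.725 in the hippocampus, close to the medians over the whole tables, 0.435 and 0.621. The median size of a difference, of either sign, was 2.38 percentage points in the blood flanks and 1.93 in the hippocampus flanks. Many flank cytosines had little methylation to lose. In the control pools, 373 of 767 in blood and 397 of 740 in the hippocampus were below 20%. Those could not show a loss as large as that of the core in blood. In the more methylated left flank, the difference of the summed readings was -1.02 in blood and -0.356 in the hippocampus.

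The flanks on either side of the core differed in level. To the left, 85.5% of the readings in the control blood pool and 71.9% in the control hippocampus pool were methylated, and to the right 26.1% and 21.7%, where dense groups of cytosines were nearly unmethylated. In the control blood pool, 373 of the 767 flank cytosines were below 20% and 258 above 80%, and 136 (17.7%) were in between, where the whole table had 16.2%. In the core, 9 of 10 were in between. One nearly unmethylated segment, from 40033608 to 40035114, held 84 cytosines, and 2.73% of its readings in blood were methylated with sGC exposure and 2.13% in controls, with 1.16% and 0.938% in the hippocampus.

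The flank cytosines were also taken as segments, separated by gaps of more than 2 kb with no listed cytosine. Among the 30 flank segments with at least 4 cytosines in blood, the difference of the summed readings lay between -8.51 and 11.7 percentage points, with a median of 0.571, and among the 30 in the hippocampus between -7.23 and 11.2, with a median of 0.431. The lowest flank segment in both tissues, from 39842140 to 39842373, held 5 cytosines, of which 1 was called. The segment nearest to the core on its left, from 39957232 to 39957539, was almost fully methylated in all pools, with 93.9% and 96.1% in blood and 96.6% and 98.4% in the hippocampus, sGC first.

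**Figure D4:**
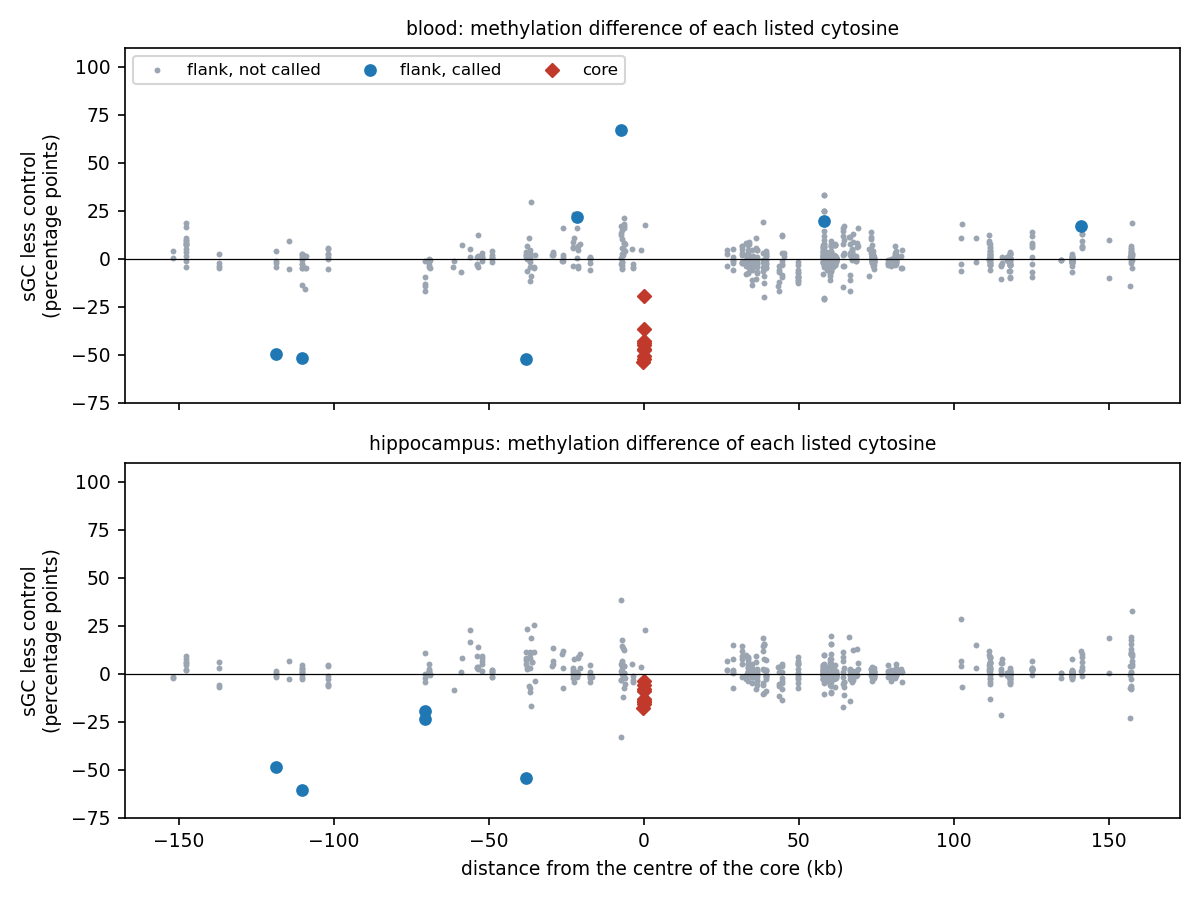
Difference of sGC less control for each listed cytosine (y axis, percentage points) by its distance from the centre of the core (x axis, kb), in blood and hippocampus. The core (red) falls to -53.8 in blood and -17.8 in the hippocampus, most flank cytosines (grey) lie near 0, and the called flank cytosines (blue) lie apart from each other, except a neighboring pair in the hippocampus.

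In the flanks, 7 of 767 cytosines (0.913%) were called in blood, 3 lower and 4 higher with sGC exposure, against 0.317% of the whole table. In the hippocampus, 5 of 740 (0.676%) were called, all lower, against 0.112%. These lay at 9 cytosines in all, 3 of which were called in both tissues. Each of the 3 was nearly unmethylated in the sGC pool and near the middle in the control pool, and the tissues were alike.

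The first of the 3, 39850741 on the plus strand, lay 110 kb to the left of the core. In blood, the sGC pool had 3 methylated reads of 106 (2.83%) and the control pool 51 of 94 (54.3%), or -51.4 points (interval -61.3 to -40.1, Fisher's exact test, adjusted p = 3.81e-14). In the hippocampus the values were 1 of 108 (0.926%) and 65 of 106 (61.3%), a difference of -60.4 (-69.1 to -50.0, Fisher's exact test, adjusted p = 1.17e-20). The 9 other listed cytosines within 75 bp were all on the same strand, and none of them differed by more than 4.59 in blood or 4.82 in the hippocampus. Their levels were above 90% in every pool, so that the change was confined to 1 of 10 listed cytosines of these reads.

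The second, 39842360 on the minus strand, had in blood 2 methylated reads of 74 (2.70%) in the sGC pool and 38 of 73 (52.1%) in the control pool, or -49.4 points (Fisher's exact test, adjusted p = 4.02e-09). In the hippocampus it had 1 of 71 (1.41%) and 35 of 70 (50.0%), a difference of -48.6 (Fisher's exact test, adjusted p = 1.20e-08). Its 2 listed neighbors within 75 bp differed by at most 4.29 in either tissue.

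At the third, 39922997 on the plus strand, blood had 2 methylated reads of 58 (3.45%) in the sGC pool and 25 of 45 (55.6%) in the control pool, or -52.1 points (Fisher's exact test, adjusted p = 2.26e-06). In the hippocampus the values were 0 of 42, which allows up to 8.38% by the Wilson interval, and 26 of 48 (54.2%), a difference of -54.2 (Fisher's exact test, adjusted p = 5.47e-06). Its 4 listed neighbors were all higher with sGC exposure, by 1.00 to 3.49 in blood and by 5.06 to 11.3 in the hippocampus. The opposite strand of these 3 CpGs was not listed in either tissue.

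These single cytosines and the core thus had losses of like size in blood. All 6 listed CpGs of the core were lower with sGC exposure in blood, and the loss was smaller in the hippocampus. Like losses on both strands in blood were seen at the CpGs of 39960971, 39960980 and 39961028. The CpGs of 39960782 and 39961002 were listed on 1 strand only, and the strands of 39960916 differed. A C-to-T base change is read as an unmethylated cytosine after bisulfite treatment. Whether the pools differ in base sequence at any of these cytosines, those of the core included, was not tested.

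The other called flank cytosines were called in 1 tissue. At 39890467 and 39890483 on the minus strand, which share reads, the hippocampus was at 61.7% and 38.3% with sGC exposure and at 81.1% and 61.6% in controls (differences of -19.4 and -23.3, Fisher's exact test, adjusted p = 0.0493 and 0.0193), and blood differed in the same direction, by -13.0 and -16.7, without being called. The plus strand of the first CpG, 39890466, differed by -2.03 in the hippocampus and -9.57 in blood. At 39953597 on the plus strand, 7103 bp outside the core, blood had 21 methylated reads of 23 (91.3%) in the sGC pool and 7 of 29 (24.1%) in the control pool, 67.2 points higher with an interval of 41.7 to 80.6 (Fisher's exact test, adjusted p = 0.00103). The hippocampus differed there by 38.7 (interval 10.7 to 59.3) with 25 and 24 reads and was not called. The remaining 3, at 39939501, 40019025 and 40102062 on the plus strand, were higher with sGC exposure in blood by 21.7, 19.7 and 17.0 (Fisher's exact test, adjusted p between 0.0378 and 0.0476), and by 0.762, 4.65 and 1.47 in the hippocampus. When the chi-square of each cytosine was divided by the inflation factor of its table, 39850741 and 39842360 were still called in both tissues and 39922997 in blood, and the other flank calls were lost.

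The change in blood was set against that in the hippocampus at each cytosine, by testing whether the log odds ratio differed between the tissues, with p adjusted by Benjamini-Hochberg over all 2564116 cytosines that both tables list. It called 0.0103% of them. In the flanks, 0 of 641 were called and 20 (3.12%) had an unadjusted p below 0.05, where 4.14% of all cytosines in both tables did, with the lowest adjusted p of the log odds ratio test at 0.978. In the core, chosen for this gap, 3 of 9 were called.

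In the flanks, the level of the tissues against each other was not used to choose the window. In the control pools, the two-sided Fisher's exact test with the same thresholds called a difference between blood and hippocampus at 20.6% of all cytosines listed in both tables and at 142 of the 641 in the flanks (22.2%), 113 of them more methylated in blood and 29 in the hippocampus. In the sGC pools it called 22.1% of all and 139 of 641 in the flanks (21.7%). The flanks were thus near the whole tables in this respect. Of the 529459 calls over all cytosines in the control pools, 410484 were more methylated in blood and 118975 in the hippocampus. Blood was thus mostly the higher tissue over the whole tables as well. In the core, the control blood pool was below the control hippocampus pool at all 9 cytosines, with differences of -15.4 to -6.07 percentage points, and Fisher's exact test called 2 of the 9, 39960972 (adjusted p = 0.00358) and 39961002 (adjusted p = 0.0147). With the chi-square divided by its inflation factor, 0 of these 9 were called. In the sGC pools, the differences lay between -54.3 and -36.2 and all 9 were called by Fisher's exact test, 8 of them also after that division. This gap in the sGC pools is the control gap plus the change the core was chosen for, and so restates that choice. The control pools of the core also enter the contrast it was chosen on, so that their calls are a description too.

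Several flank segments also separated the tissues, though segments were counted in the window only and have no share over the whole tables beside them. In 11 of the 30 flank segments with at least 4 cytosines in both tissues, the control blood pool was above the control hippocampus pool by at least 10 percentage points, and in 1 it was below by as much. From 40102044 to 40102289, 74.1% of the readings of the control blood pool and 10.3% of the control hippocampus pool were methylated, and with sGC exposure 84.7% and 15.4%. From 40086090 to 40086271, the control pools were at 44.7% in blood and 2.21% in the hippocampus, and the sGC pools at 51.2% and 5.81%. The segment with the opposite order, from 40004367 to 40006145, had 43.6% in blood and 64.4% in the hippocampus in the control pools at the cytosines listed in both. With sGC exposure these were 41.2% and 63.9%. The pools within a tissue were not the same in these segments. In blood, all 8 cytosines from 40102044 to 40102289 were higher with sGC exposure, by 10.6 points over the segment, and 1 was called. From 40010550 to 40010612, another of the 11 segments, all 12 cytosines were lower in blood with sGC exposure, at 45.2% against 53.3% (-8.11 points), whereas the hippocampus stood at 40.1% and 39.7%. None of these 12 was called in either tissue, and they lie within 62 bp.

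The reads per cytosine were not used by the rule either. The sGC pool had 1.21 times as many reads as the control pool at the median cytosine of the window in blood and 1.11 times in the hippocampus, as over the whole tables (1.20 and 1.08). At 14 cytosines of the window in blood (1.80%) and 2 in the hippocampus (0.267%) the pools differed by 5 times or more, where 0.0198% and 0.0186% of the whole tables did. All 16 had fewer reads in the sGC pool. In blood they were 39960917 in the core, 7 cytosines from 39813171 to 39813254 with 10 to 12 reads in the sGC pool and 79 to 105 in the control pool, and 6 from 39850617 to 39851803 with 10 or 11 against 73 to 114. In the hippocampus they were 39846370 and 39846388, with 12 reads against 87 at each. They lay in 4 segments and share reads within them, so that few fragments make up this count. At the other 9 core cytosines the loss stood at like coverage in both pools, and the part of the coverage in the result at 39960917 was not tested.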

How the data were processed

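RRBS was done on hippocampus and whole blood. Per the labels and the study's methods, the authors trimmed reads (Trim Galore, NuGEN script), aligned them with Bismark 0.16.0, used SAMtools 1.7 and deposited, for each tissue, total read counts and methylated read counts per cytosine (build cavPor3), summed over the 6 animals of a group and not normalized. A further deposited column, an FDR of the authors' own test, was not used. That test took batch as a covariate, and sequencing batches were balanced over tissue and exposure per the study's methods. The summed counts hold no batch or animal, so that no value within a batch could be computed. The tables list cytosines with at least 10 reads in each pool and hold none with 0 methylated reads in both pools, nor any fully methylated in both, so that levels near 0% and 100% are listed in part. Total coverage was 269116901 to 323883199 per pool. Whether positions count from 0 or 1 is not given in the sources used here.

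Percentages, differences, Wilson and Newcombe intervals and Fisher's exact tests were computed from the summed counts in Python 3.11.15 (scipy 1.17.1, numba 0.67.0, pandas 2.3.3, numpy 2.4.6, figures with matplotlib 3.10.9). The tests were tried on simulated reads drawn independently, with no spread between animals. That trial therefore does not show their error rate in these pools. In the log odds ratios, 0.5 was added to each count. Cytosines to name were the core, its nearest neighbors and the called flank cytosines. The window, its core and the tests were chosen with earlier results of these data known, and the comparison of the tissues' changes, the neighbors within a read and the coverage ratios after the values were seen. Groups came from the sample labels. Alternatives were a minimum of 30 reads, a minimum difference of 10 points, summed strands, equal weights and a chi-square divided by the table's inflation factor.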

Additional observations from a re-analysis of the deposited data

How the results depend on the processing

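The spread between animals is unknown, and a replicate could not be left out. No paired analysis was possible because the tables hold sums over the animals. Dividing the chi-square by the inflation factor of the table left 2 of 5 calls in the hippocampus window, 56 of 144 tissue calls in the control pools and 75 of 148 in the sGC pools. The core in blood moved to -43.8 percentage points with cytosines weighted equally. The small flank difference in blood of -0.879 became -0.148 at a minimum of 30 reads and was positive with equal weights (0.827), at cytosines listed in both tissues (0.00246) and within 5 kb of the core (8.16, from 6 cytosines with a mean difference of 2.73). Within 5 kb, the hippocampus flanks differed by 17.9 (7 cytosines, mean difference 2.83). Single cytosines there had no common direction, with 3 higher and 3 lower in blood and 3 higher and 4 lower in the hippocampus. The nearly unmethylated 39959881 and 39959936 had 29 reads each of 455 sGC readings in the hippocampus, and 32 each of 210 control readings. Such unequal weights enter the summed values, so no gain beside the core can be read from them. The loss in blood spanned 58 bp at a threshold of 20 points, broken by 39960917, and 246 bp with the strands of a CpG summed. With strands summed, the CpGs of 39960917 and 39961028 were called in blood, where the other strand of each was already called alone. At the first, the summed difference was -60.7, beyond that of either strand (-52.3 and -19.3). The minus strand there adds 157 reads to the control pool but 18 to the sGC pool, so the summed call adds nothing for 39960917. In the hippocampus, 39890467 was no longer called with strands summed. No other summary value left its interval, or its range of 1.5 times for a count, under the remaining alternatives, which were other minimum coverage, minimum difference, strands and tissues' common cytosines.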
